A study of Mus musculus with 6 samples.

Results

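The Slco genes encode organic anion transporting polypeptides, and 9 of them were followed among the 22180 genes measured in the kidney of db/db mice, which are diabetic, and of db/m littermates, which are not. They are Slco1a1, Slco1a4, Slco1a6, Slco2a1, Slco2b1, Slco3a1, Slco4a1, Slco4c1 and Gm6614, a predicted gene that the study's tables list with the organic anion transporters and that lies between Slco1a1 and Slco1a6 on chromosome 6. They were chosen with earlier results of these data known, and all 9 have a probe set that names them alone. The 8 further measured genes of the family all had mean signals below the medians of the arrays. Shares among the 9 therefore describe a chosen set and not the whole family. RNA of 3 db/db and 3 db/m littermates, all male, on the C57BL/KsJ background and 22 weeks old, was hybridized with 1 Affymetrix array per mouse. Standard chow was fed for 12 weeks, starting when the mice were 10 weeks old. The methods name renal cortex as the tissue and the labels name kidney. In db/db mice both copies of the leptin receptor gene Lepr carry the db mutation in every cell, and the letters db/m conventionally stand for 1 db copy beside the linked misty coat-colour marker, so the controls are not wild type. The Lepr signal was 3.86 ± 0.38 in db/db mice and 3.73 ± 0.22 in db/m mice (SD, n = 3 each), and it does not check the genotype, since the db mutation alters the transcript without removing it.

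Organic anion transporting polypeptides sit in the plasma membrane and carry bile acids, conjugated steroids, thyroid hormones, prostaglandins and many drugs into cells without using ATP directly. In the kidney they work in the tubule beside the organic anion transporters of the Slc22 family, which take anions up, and beside ABC pumps, which push conjugates out. Slco1a1, known as Oatp1a1, is a transporter of the proximal tubule brush border that is known in mice to be far more abundant in male than in female kidney and to depend on androgen there.

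Signals are on the log2 scale, and log2 fold changes are db/db minus db/m. Medians of the arrays lay between 3.36 and 3.43, and a signal below them is hard to tell from background. All 12 proximal tubule markers, such as Lrp2 and Slc34a1, were above these medians in every mouse, with a lowest signal of 10.4. Their mean lay between 11.30 and 11.36 in db/db mice and between 11.23 and 11.34 in db/m mice. Correlations between arrays over all 41345 probe sets ran from 0.984 to 0.990, which does not show whether an array stands apart in single genes. In several related genes, db/db replicate 3 lay away from db/db replicates 1 and 2. For Slc22a7 it had 5.67 against 3.74 and 3.15, and for Ugt2b37 5.74 against 8.14 and 7.98. Slc7a13 had 8.75 there against 9.71 and 9.63, Ugt2b38 6.87 against 8.33 and 8.05, and Dio1 7.34 against 5.96 and 5.91. These are examples and not a full count. Slco1a1 and Gm6614 passed without db/db replicate 3. In RNA from whole tissue, fewer cells of a type and less RNA per cell cannot be told apart.

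In db/db kidneys Slco1a1 fell and Gm6614, its neighbour on the chromosome, rose, and none of the other 7 genes passed the test. At an adjusted p under 0.05 in limma's moderated test over all genes, 2 of the 9 genes were called, where 0.482% of all genes were. Of these, 1 was higher, where 0.194% of all genes were, and 1 was lower, where 0.289% of all genes were. With the study's thresholds, an unadjusted p under 0.05 and a change of at least 1.5-fold, 2 were higher (Gm6614 and Slco4a1) and 1 was lower (Slco1a1), against 1.02% and 0.807% of all genes. An unadjusted p under 0.05 alone was reached in limma by 2 higher and 4 lower genes, where 5.92% and 4.7% of all genes reached it. In the methods' t-test, which does not moderate variances, 2 higher and 1 lower gene (Slco1a1) reached it, where 1100 and 892 of the 22180 genes did. The median log2 fold change was -0.12 over the 9 genes and 0.00 over all genes. Slco1a1, Slco4a1 and Gm6614 stand in the study's own tables from these arrays, so their directions are not independent evidence. For Slco1a1 the study also reports a lower mRNA level in db/db mice by qPCR, which it describes as technical validation of the arrays.

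**Figure D1:**
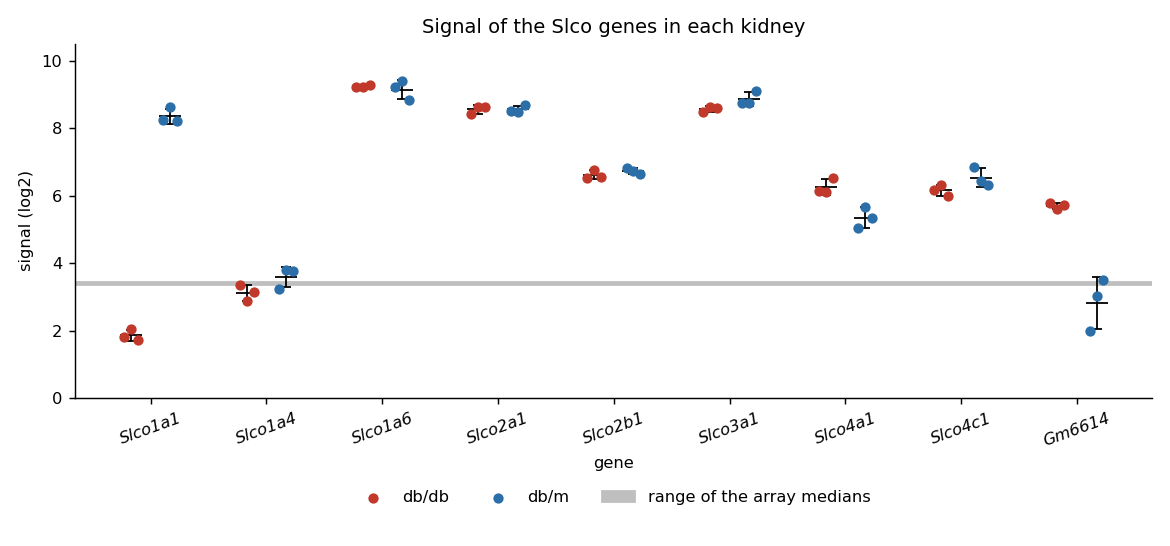
Signal (log2) of 9 Slco genes in each kidney, with db/db mice in red on the left and db/m mice in blue on the right of each gene, the mean and SD of 3 mice in black, and the range of the array medians as a grey band. Slco1a1 lies at 1.71 to 2.05 in db/db mice, under the band, and at 8.21 to 8.62 in db/m mice, while Gm6614 lies higher in db/db mice.

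Slco1a1 had signals of 1.81, 2.05 and 1.71 in the 3 db/db mice, against 8.23, 8.62 and 8.21 in the 3 db/m mice. All db/db mice lay below the median of their array and all db/m mice far above it, and the spread within either group was small beside the gap. Slco1a1 fell by 6.50 on the log2 scale (SE, the standard error of the difference, 0.14; 95% interval -6.82 to -6.18, adjusted p = 7.14e-08 in limma), with means of 1.86 ± 0.17 in db/db mice and 8.36 ± 0.23 in db/m mice (SD, n = 3 each). This is 90.5-fold lower in signal, and it was both the largest fall and the smallest p among the 22180 genes. Since the db/db signal lies in the range of background, the size is uncertain. With the array median taken in place of the dim db/db signal, the difference was 4.98 on the log2 scale, or 31.5-fold. With single arrays left out, Slco1a1 passed in all 6 fits, with log2 fold changes from -6.59 to -6.37, and in the methods' t-test (adjusted p = 0.0274).

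Gm6614 had signals of 5.77, 5.61 and 5.71 in the db/db mice, against 1.98, 3.01 and 3.49 in the db/m mice. The db/db mice lay close together above their array medians, and the db/m mice were spread out, with db/m replicate 3 just above its array median and the other two below theirs. Gm6614 rose by 2.87 on the log2 scale (SE 0.31, 95% interval 2.18 to 3.57, adjusted p = 0.00654 in limma), with means of 5.70 ± 0.09 in db/db mice and 2.83 ± 0.77 in db/m mice (SD, n = 3 each). This is 7.32-fold in signal, but the size is uncertain, since the mean of the db/m mice lies below the array medians. With the array median taken in place of the dim db/m signal, the difference was 2.30, or 4.93-fold. With single arrays left out, it passed in all 6 fits, with log2 fold changes from 2.45 (without db/m replicate 1) to 3.20 (without db/m replicate 3), but not in the methods' t-test (adjusted p = 0.340).

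Slco1a1 and Gm6614 are neighbours in a run of 8 measured Slco1 genes on chromosome 6, in the order Slco1c1, Slco1b2, Gm5724, Slco1a4, Slco1a1, Gm6614, Slco1a6 and Slco1a5, with 0 other measured genes between them. The other 6 genes of the run did not pass, with log2 fold changes from -0.48 (Slco1a4) to 0.09 (Slco1a6). The measured genes just outside the run, Pde3a and Gm10400 on one side and Iapp and Recql on the other, had log2 fold changes between -0.07 and 0.09 and did not pass. Genes of the Slco1a group resemble each other in sequence, and whether RNA of one also binds probes of another was not tested.

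**Figure D2:**
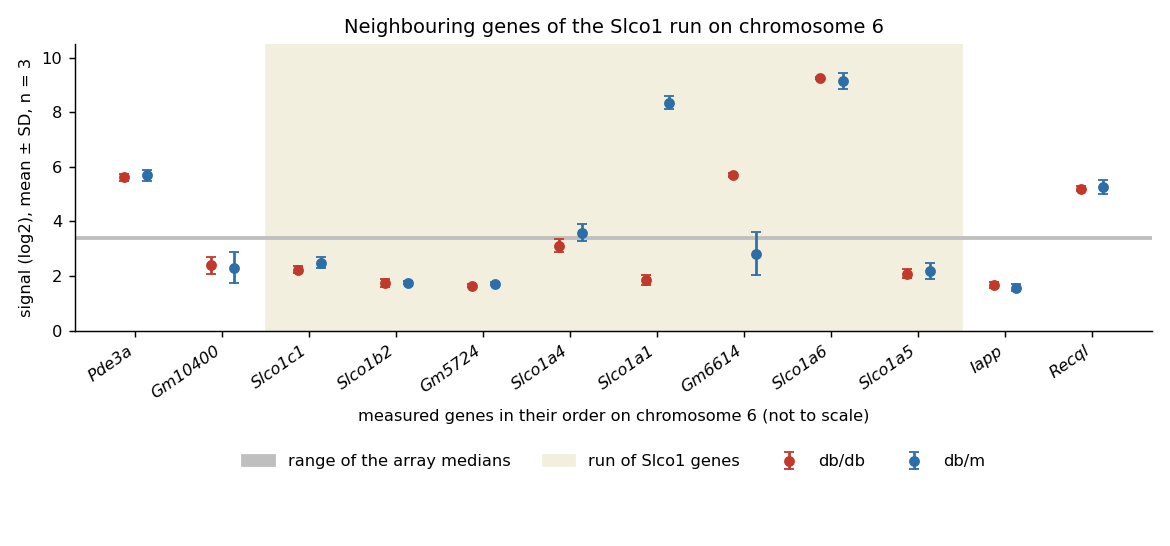
Mean signal (log2) ± SD of 3 mice for the measured genes of the Slco1 run on chromosome 6 and for the nearest measured genes on either side, in chromosome order and not to scale, with db/db mice in red left of db/m mice in blue and the range of the array medians as a grey band. The groups part at Slco1a1, lower in db/db mice, and at Gm6614, higher in db/db mice, and Slco1a6 beside them is bright in both groups.

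Windows around the annotated starts of these neighbours are shown because their genes moved most and in opposite directions. RefSeq sequence of build GRCm38.p6 was used, with a window from 250 bases before to 50 bases after the annotated start, and 15 of 17 Slco genes had at least 1 window (19 windows in all). Both genes lie on the minus strand, Slco1a1 with its window at chr6:141946913-141947212 and Gm6614 at chr6:142008696-142008995, and capitals mark the motifs found.
Slco1a1: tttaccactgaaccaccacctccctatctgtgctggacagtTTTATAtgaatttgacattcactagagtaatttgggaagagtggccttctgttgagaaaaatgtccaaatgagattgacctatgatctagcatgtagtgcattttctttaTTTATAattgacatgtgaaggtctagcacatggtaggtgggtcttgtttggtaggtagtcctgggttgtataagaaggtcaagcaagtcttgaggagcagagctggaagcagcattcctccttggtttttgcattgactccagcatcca
Gm6614: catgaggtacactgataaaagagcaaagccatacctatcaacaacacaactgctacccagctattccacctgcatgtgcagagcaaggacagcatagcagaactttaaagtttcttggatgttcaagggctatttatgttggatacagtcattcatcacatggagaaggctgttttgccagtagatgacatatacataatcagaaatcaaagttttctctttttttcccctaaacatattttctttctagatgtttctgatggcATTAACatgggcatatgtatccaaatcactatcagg

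In these windows 4 short motifs were searched on both strands. The letters TATAAA of the TATA box occurred only on the opposite strand, as TTTATA, at 209 and 99 bases before the start of Slco1a1. They were not in the Gm6614 window, and 13.6% of all 32851 windows hold them on either strand. Only exact matches were counted, so the tataag nearer the start of Slco1a1 is not marked. Whether any of these sites works as a TATA box was not tested. The half-site of the tubule factor HNF1, GTTAAT, occurred as ATTAAC in the Gm6614 window and not in the Slco1a1 window. It begins at base 15 after the annotated start, and 7.1% of all windows hold it. The annotated start of Gm6614 falls on the letters atg, directly after ttctttctag. Whether transcription begins there, and so whether this window holds a promoter, was not tested. The androgen receptor half-site AGAACA (19.0% of all windows) and the CCAAT box CCAAT (37.4%) were in neither window. The longest run of bases that both windows share had 9 bases, against 20 bases (GGCTTGGTATTGGTTGAAAG) between Slco1a4 and Slco1a5 of the same run. A match or its absence describes the letters of these windows only.

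Slco1a6, a transporter found mainly in the kidney, was bright in both groups, with signals of 9.22, 9.23 and 9.28 in db/db mice against 9.21, 9.39 and 8.83 in db/m mice. Its groups overlapped, and its log2 fold change was 0.09 (SE 0.14, 95% interval -0.23 to 0.42, adjusted p = 0.859). Slco1a4, or Oatp1a4, which carries bile acids and digoxin in liver and brain capillaries, had signals of 3.35, 2.87 and 3.14 in db/db mice against 3.24, 3.78 and 3.75 in db/m mice. These lie around the array medians, and 1 db/m mouse lay within the db/db range. Its log2 fold change was -0.48 (SE 0.17, 95% interval -0.87 to -0.08, adjusted p = 0.364). It reached the study's thresholds without db/db replicate 1 (-0.59) and without db/m replicate 1 (-0.65).

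Slco4a1, a carrier of thyroid hormone and bile acids, had signals of 6.14, 6.12 and 6.52 in db/db mice against 5.05, 5.67 and 5.34 in db/m mice. Each db/db mouse was above each db/m mouse. The log2 fold change was 0.91 (SE 0.17, 95% interval 0.52 to 1.30), and the gene narrowly missed the threshold (adjusted p = 0.0767 in limma). It passed without db/m replicate 2, where the log2 fold change was 1.07 (adjusted p = 0.0486), and with trend and robust variances (adjusted p = 0.0458).

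Slco4c1, a basolateral transporter of the proximal tubule known from humans and rats for uraemic toxins and cardiac glycosides, had signals of 6.16, 6.31 and 5.99 in db/db mice against 6.85, 6.45 and 6.31 in db/m mice. The groups met at their edges, where the highest db/db and the lowest db/m mouse both had 6.31. Its log2 fold change was -0.38 (SE 0.16, 95% interval -0.73 to -0.03, adjusted p = 0.424).

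Slco3a1, a widely expressed carrier of prostaglandins and thyroxine, had signals of 8.49, 8.64 and 8.60 in db/db mice against 8.74, 8.76 and 9.12 in db/m mice. Its groups did not overlap, but the log2 fold change of -0.30 (SE 0.13, 95% interval -0.59 to -0.01) did not pass (adjusted p = 0.450). Without overlap were 4 of the 9 genes (Slco1a1, Slco3a1, Slco4a1 and Gm6614), where 16.8% of all genes were.

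Slco2a1, the prostaglandin transporter, had signals of 8.42, 8.63 and 8.63 in db/db mice against 8.51, 8.49 and 8.69 in db/m mice. The groups overlapped in part, and db/m replicate 3 was above every db/db mouse, with a log2 fold change of -0.00 (SE 0.11) and a 95% interval from -0.26 to 0.25. Slco2b1, a broadly expressed carrier of steroid sulfates, had signals of 6.52, 6.77 and 6.56 in db/db mice against 6.83, 6.73 and 6.64 in db/m mice, which also overlapped. Its log2 fold change was -0.12 (SE 0.11, 95% interval -0.37 to 0.14). A second probe set of Slco2b1, the only gene of the 9 with several, lay below the array medians at 2.56 to 3.01 in db/db mice and 2.48 to 2.87 in db/m mice.

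The family has 8 further measured genes, namely Slco1a5, Gm5724, Slco1b2 of liver, Slco1c1, the thyroxine carrier of brain vessels, Slco5a1, Slco6b1, Slco6c1 and Slco6d1. None passed the test in limma, the methods' t-test or at an unadjusted p under 0.05, with log2 fold changes from -0.25 (Slco1c1) to 0.15 (Slco6d1). All 8 had group means below the array medians in both groups, where a signal is hard to tell from background. Of the 9 genes followed, 6 were above the array median on 6 of 6 arrays, where 58.7% of all genes were, and the exceptions were Slco1a1, Slco1a4 and Gm6614.

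**Figure D3:**
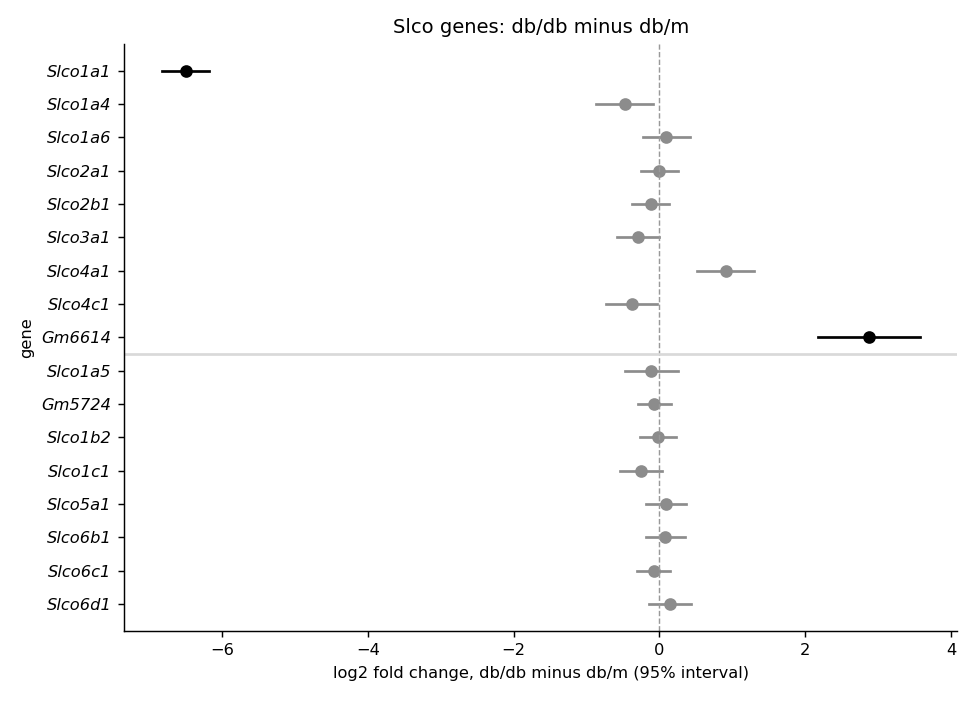
Log2 fold change (db/db minus db/m, 3 mice each) with its 95% interval for the 9 Slco genes, above the grey line, and for the 8 further genes of the family, below it, with genes past an adjusted p of 0.05 in black. Slco1a1 lies at -6.50 and Gm6614 at 2.87, Slco4a1 at 0.91 did not pass, and the intervals of the further genes all reach across 0.

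Carriers and pumps that share substrates with the Slco family were read from the same fit. Of 10 measured carriers of organic anions and bile acids outside the family, 0 rose and 1 fell, with a median log2 fold change of -0.31 and 9 negative values. The gene that fell was Slc22a7, or Oat2, with signals of 3.74, 3.15 and 5.67 in db/db mice against 8.14, 7.43 and 7.00 in db/m mice. Its difference was -3.34 (SE 0.55, adjusted p = 0.0407), and with single arrays left out it passed only without db/db replicate 3. It also missed the threshold with trend and robust variances (adjusted p = 0.199). Of 10 measured ABC pumps, 4 rose and 0 fell, with a median of 0.24. They were Abcc3, a pump for glucuronides and bile acids (1.93, SE 0.33, adjusted p = 0.0466), the drug pumps Abcb1b (1.27, SE 0.15, adjusted p = 0.0117) and Abcb1a (0.88, SE 0.11, adjusted p = 0.0137), and Abcc4, which exports prostaglandins (0.92, SE 0.15, adjusted p = 0.0354). With single arrays left out, Abcb1b lost the call without db/db replicate 1 and without db/m replicate 3, Abcb1a kept it only without db/m replicate 1 or 2, Abcc3 only without db/db replicate 2, and Abcc4 in no fit. Abcc3 also missed the threshold with quantile normalization (adjusted p = 0.0616) and with trend and robust variances (adjusted p = 0.0934). The study names Slc22a7 and all 4 pumps from these arrays, so their directions are not independent evidence. It also reports Abcc3 higher in db/db mice by qPCR.

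Genes that make, break down or sense Slco substrates were mostly not called. Of 11 measured prostaglandin genes, 0 were called in limma or in the methods' t-test, and 2 had an unadjusted p under 0.05 in each. Their median log2 fold change was 0.20, and the largest was that of the receptor gene Ptger3, with 7.72 ± 0.29 in db/db mice and 6.90 ± 0.30 in db/m mice (SD, n = 3 each, adjusted p = 0.119 in limma). Of 8 measured thyroid hormone genes, 0 were called by either test and 1 had an unadjusted p under 0.05 in each, with a median of 0.02. The largest difference was 0.84 for Ttr, which encodes the thyroxine carrier transthyretin (adjusted p = 0.107). Of 11 measured conjugating enzymes, 1 rose and 0 fell, with a median of 0.09. The glucuronosyltransferase Ugt2b34 rose by 0.91 (SE 0.12, adjusted p = 0.0162), and with single arrays left out it passed only without db/db replicate 3 or db/m replicate 2. Ugt2b37, of the same enzyme family, had a larger difference of -2.97 and did not pass (adjusted p = 0.0514), but passed without db/db replicate 3 (-2.20, adjusted p = 0.000649), with arrays centred on their medians (adjusted p = 0.0475) and with dim probe sets left out (adjusted p = 0.0462). Of 14 measured receptors and factors known to act on Slco or tubule genes, 0 rose and 1 fell, with a median of 0.10. Esr1, an oestrogen receptor, fell by 0.89 (SE 0.13, adjusted p = 0.0270) and passed in none of the 6 fits with an array left out. The study also names Esr1, Ptger3, Ttr, Ugt2b34 and Ugt2b37 from these arrays, and reports Esr1 and Ugt2b37 lower in db/db mice by qPCR. The androgen receptor was not analysed here.

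Slco1a1 was set beside 10 other genes that are known to be higher in male than in female mouse kidney or to depend on androgen there. Of these, 0 rose and 4 fell, 9 had negative values, and the median log2 fold change was -0.55. The 1 positive value was that of Cyp4a12b, at 0.57 (adjusted p = 0.491 in limma). The list was chosen with earlier results of these data known. Cyp7b1, a hydroxylase of sterols, fell by 2.85 (SE 0.19, adjusted p = 0.000560), and Hsd17b2, which inactivates testosterone and oestradiol, fell by 1.64 (SE 0.13, adjusted p = 0.000900). Both passed with any single array left out. Slc7a13, an amino acid transporter, fell by 1.37 (SE 0.23, adjusted p = 0.0433), and Kap, the kidney androgen-regulated protein, fell by 0.87 (SE 0.11, adjusted p = 0.0156). With single arrays left out, Slc7a13 passed only without db/db replicate 3 and Kap only without db/m replicate 2. Slc7a13 also missed the threshold with quantile normalization (adjusted p = 0.0529) and with trend and robust variances (adjusted p = 0.0771). The study names Cyp7b1, Hsd17b2 and Slc7a13 from these arrays, and reports all of them lower in db/db mice by qPCR. No hormone was measured on the arrays, and the part of androgen in these values was not tested.

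**Figure D4:**
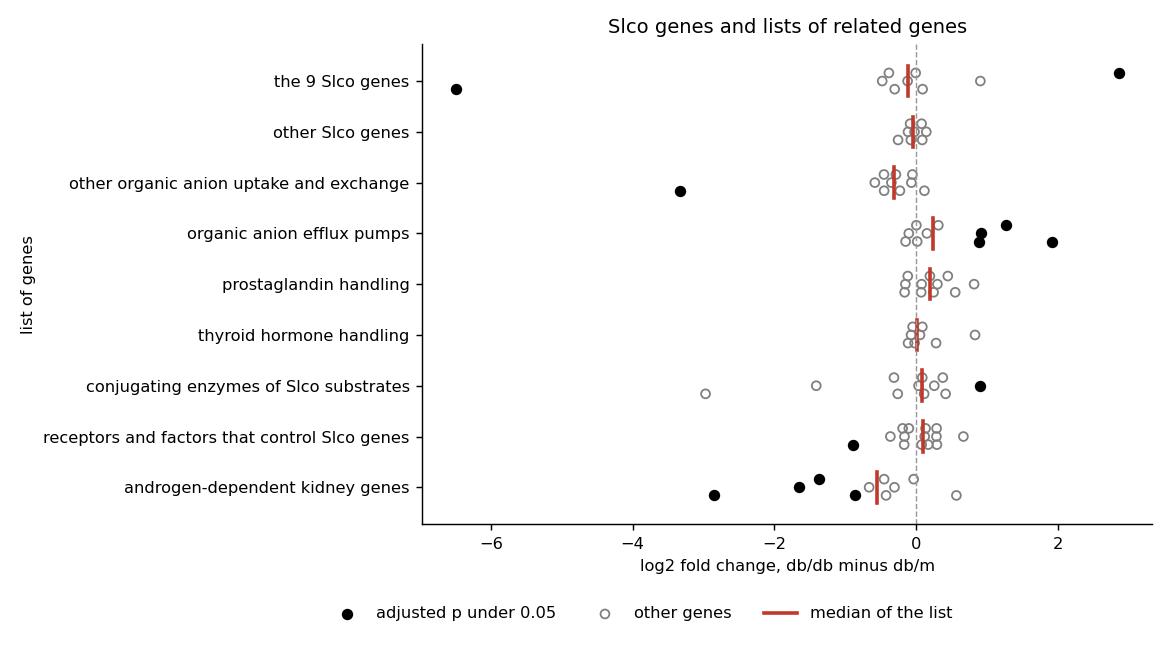
Log2 fold change (db/db minus db/m) of each measured gene in the Slco family and in lists of related genes, with genes past an adjusted p of 0.05 as filled points, other genes as open points and the median of each list as a red line. Called pumps lie to the right of 0 and called androgen-dependent genes to the left, and Slco1a1 lies farthest from 0 of all genes shown.

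Likeness to Slco1a1 and to Gm6614 was measured as the root mean square difference from each gene over the 6 arrays, after each gene's mean was taken away. Slco1a1 had the largest fall and Gm6614 the largest rise of all genes. The measure therefore depends largely on the size of a gene's own change in the same direction. It does not show a shared pattern beyond the difference between the groups. Closest to Slco1a1 were Slc22a26, an organic anion transporter (1.57), Alox15, a lipoxygenase (1.67), Slc22a7 (1.83), Cyp7b1 (1.85) and Pzp, a protease inhibitor (1.90). These 5 genes fell by 2.84 to 3.49 on the log2 scale, and Slco1a1 fell by 6.50. Slc22a26 had signals of 4.60, 4.32 and 3.99 in db/db mice against 8.38, 7.39 and 7.61 in db/m mice. Closest to Gm6614 were Abcc3 (0.603), Sprr1a, a small proline-rich protein (0.764), Maob, which breaks down monoamines (0.808), Abcb1b (0.875) and Xpnpep2, a peptidase (0.884). These rose by 1.20 to 1.93, and Gm6614 rose by 2.87. The study names Slc22a7, Slc22a26, Cyp7b1, Abcc3, Abcb1b and Maob of these genes. By qPCR it reports Cyp7b1 lower and Abcc3 and Maob higher in db/db mice.

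**Figure D5:**
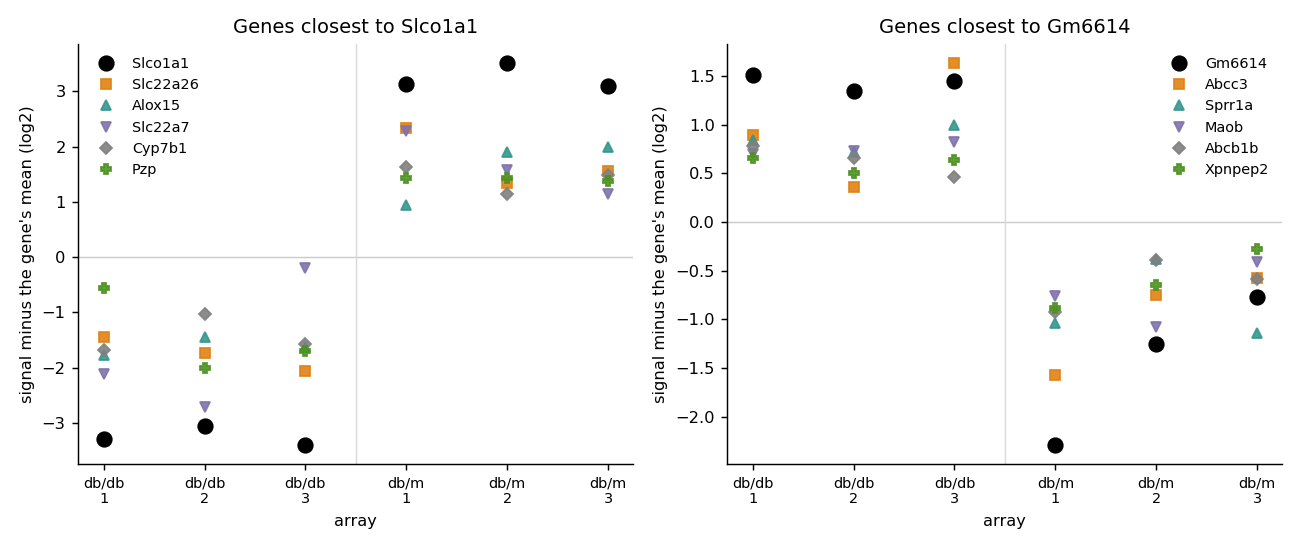
Signal minus the gene's mean over 6 arrays (log2), for Slco1a1 with its 5 closest genes on the left and Gm6614 with its 5 closest genes on the right, and for each array, db/db mice before db/m mice. Slco1a1, in black, has the largest fall of all genes and lies farther from 0 than its 5 closest genes on all 6 arrays.

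Cell type markers were read beside the Slco genes, and limma called 0 in any list. Proximal tubule markers ran from -0.28 to 0.35 and endothelial markers from -0.16 to 0.22. All 6 loop and distal tubule markers had positive values, with summed linear signals of 8691 to 9812 in db/db mice and 7291 to 7622 in db/m mice. Of 7 collecting duct markers 6 were positive, with sums of 2150 to 2464 in db/db mice and 1809 to 2058 in db/m mice. All 4 measured podocyte markers were positive, with sums of 722 to 765 in db/db mice and 611 to 711 in db/m mice. Of 8 hepatocyte markers 4 were positive, with sums of 3287 to 3812 in db/db mice and 4029 to 4671 in db/m mice. Most of these sums is Cyp2e1, the brightest of the 8, with a log2 fold change of -0.41, while Alb had 0.48. The mean log2 signals of the 8 overlapped, with 5.97 to 6.02 in db/db mice and 5.80 to 6.23 in db/m mice. All 8 macrophage markers had negative values, with sums of 355 to 373 in db/db mice and 428 to 489 in db/m mice. Adipocyte markers were negative in all 5 measured genes, with overlapping sums of 413 to 935 in db/db mice and 549 to 838 in db/m mice. At an unadjusted p under 0.05, limma had 2 proximal tubule markers higher and 1 lower. It also had 4 loop and distal tubule, 2 collecting duct and 1 podocyte marker higher, and 3 macrophage markers lower. Hepatocyte markers had 1 each way, and endothelial and adipocyte markers had 0. The methods' t-test called 0 markers in these lists. At an unadjusted p under 0.05 it had 3 proximal tubule, 3 loop and distal tubule, 2 collecting duct, 1 podocyte, 2 macrophage and 1 hepatocyte marker. Their part in the values of the Slco genes was not tested.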

How the data were processed

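Kidney RNA of 3 db/db and 3 db/m mice was measured with 1 Affymetrix array each. The authors deposited log2 signals made by RMA in Affymetrix Expression Console, per the labels, with versions, build and filters not given in the sources used here. RMA pulls arrays to a common distribution and leaves dim signals uncertain. Gene names come from the platform annotation that matches the probe-set identifiers, which is for a different array than the one in the methods. Of 41345 probe sets, 23521 name 1 gene, 1820 several and 16004 none, and 23328 matched RefSeq (GRCm38.p6). The file has 0 columns outside the 6 samples.

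Per gene the brightest probe set naming it alone was used. Groups were compared with limma 3.58.1 in R 4.3.3 (lmFit, eBayes, two-sided, db/db minus db/m, no covariate), adjusted by Benjamini-Hochberg over 22180 genes. The 3 arrays per group limit the precision. Errors of means are SDs and those of log2 fold changes are standard errors. The labels call the arrays biological replicates.

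The 9 genes and the lists were chosen with earlier results of these data known. Named are all Slco genes, the called genes of each list or its largest change, and the 5 genes closest to Slco1a1 and to Gm6614. Ugt2b37, Ugt2b38, Dio1 and Cyp4a12b were added after their values were seen. Slco1a7 and Slco1a8 of the listed names did not match a symbol. Whether they are measured under another symbol, such as one that begins with Gm, was not checked. Alternatives were quantile normalization, median centring, dim genes left out, the methods' t-test (their analysis of variance, which for a pair of groups is the same test), trend and robust variances, probe sets of a gene averaged, a replicate block, an adjusted p under 0.1 and each array left out. Scripts ran in Python 3.11.15.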

Additional observations from a re-analysis of the deposited data

How the results depend on the processing

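The fall of Slco1a1 passed under every alternative with a test, and the rise of Gm6614 under all but the methods' t-test. The count of Slco genes called higher, 1 in limma, was 2 with trend and robust variances and 2 at an adjusted p under 0.1, since Slco4a1 passed there as well, and 0 with the methods' t-test, where 2 were higher at an unadjusted p under 0.05. Without single arrays it ran from 1 to 2, and was 2 without db/m replicate 2. The count past the study's thresholds lower, 1, ran from 1 to 2 without single arrays, and was 2 without db/db replicate 1 and without db/m replicate 1, where Slco1a4 reached them. Over all genes, 43 higher and 64 lower calls became 0 and 2 with the methods' t-test (1100 and 892 at an unadjusted p under 0.05), 96 and 97 at an adjusted p under 0.1, and 8 to 26 and 20 to 43 without single arrays. The 11 called genes of the related lists became 0 with the methods' t-test (11 higher and 13 lower unadjusted) and 2 to 8 without single arrays (2 without db/db replicate 1 and without db/m replicate 3). The fits without 1 array have fewer samples, and other causes were not tested. With the array median in place of its dim level, the log2 fold change of Slco1a1 was -4.98, an alternative chosen after seeing the data.

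With the replicate number as a block, 19 genes were called higher and 42 lower, and 7 genes of the related lists were called. Among the related genes, Slc22a7 (adjusted p = 0.0753), Abcc4 (0.0785), Abcb1a (0.0555), Ugt2b34 (0.0521) and Kap (0.0645) were no longer past the threshold and Ugt2b37 (0.0475) was, while Slco1a1 and Gm6614 passed as before. The labels do not say that the numbers pair the mice. Deviations of same-numbered arrays correlated at 0.04, -0.05 and -0.08, and not every array correlated best with its own number. These values show no pairing, but with 3 arrays per group they cannot exclude it. Signals near the array medians limit what can be seen of Slco1a1 in db/db mice, Gm6614 in db/m mice, Slco1a4 and the 8 further Slco genes.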
